A study of Mus musculus with 2 samples.

Results

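The neuregulin and ErbB system of the mouse heart was described through 6 genes, chosen by their symbols from the 55357 genes listed in the count tables: the ligands Nrg1 and Hbegf and the receptors Erbb2, Erbb3, Erbb4 and Egfr. For Nrg1, which is listed on 2 rows, the row ENSMUSG00000062991 was used, and the other row held 0 UMIs in both libraries. A UMI (unique molecular identifier) marks 1 captured RNA molecule.

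Dissociated hearts of C57BL/6 mice gave 2 single-cell libraries, 1 per condition, each pooling cells of 3 to 5 hearts. In the TAC group, the aortic arch of male mice aged 8 weeks was narrowed with a suture (transverse aortic constriction, a model of pressure overload), and hearts were taken 6 weeks later. The Sham group had the same operation without the constriction, although the design text speaks of uninjured mice, and the labels give it no age or sex. Both groups are labelled with the same strain, and no genetic change is named for either.

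Neuregulin 1 is made as a membrane protein with an EGF-like domain and, once shed, binds ErbB3 or ErbB4. ErbB2 binds no known ligand and signals as the partner of the other receptors, while ErbB3 has little kinase activity of its own. In the heart, neuregulin from the endocardium and the vessel lining is known to act on cardiomyocytes, where it is needed for trabeculation in the embryo and for tolerance of stress in the adult. HB-EGF is a heparin-binding ligand of EGFR and ErbB4.

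The Sham library held 9935 barcodes and 28146691 UMIs, and the TAC library 9932 barcodes and 29108986 UMIs, with 32 barcode sequences found in both. After removal of predicted doublets and of barcodes with fewer than 200 genes, 9465 and 9459 cells remained, at a median of 1906 and 2080 UMIs per cell. Cells were clustered in each library without the 6 genes, the related pathway genes or the mitochondrial genes, and were named from marker genes. The 7 types with at least 50 cells in each library were cardiomyocytes (2508 Sham and 2399 TAC cells), fibroblasts (2289 and 2129), macrophages (1411 and 1326), pericytes (1063 and 1044), endocardial endothelial cells (189 and 276), lymphatic endothelial cells (85 and 112) and all other blood endothelial cells (1712 and 1976). Cardiomyocyte clusters carried 10 of 10 fixed markers, and the endocardial clusters carried 8 in the Sham and 9 in the TAC library, Npr3, Cytl1 and Tmem108 among them. A level is given as UMIs per 1000000 UMIs of a cell type with its exact Poisson 95% interval. With 1 library per condition there is no replicate, so no difference between the libraries could be tested and every interval covers counting error only.

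The genes that pressure overload is known to raise did not separate the libraries in 1 direction. In cardiomyocytes Nppa was at 15.6 in the Sham and 11.7 in the TAC library, Nppb at 38.1 and 29.4, Acta1 at 33.8 and 11.97, and Ankrd1 at 333 in both, while Myh7 was at 609 and 825. In fibroblasts Postn was at 94.7 and 68.4, and Cilp at 61.9 and 44.9. Of these 7 genes, Myh7 alone was higher in the library labelled TAC, and directions below are therefore those between the libraries as labelled.

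Nrg1 marked the endocardium. Its level in endocardial endothelial cells was 1335 (1213 to 1465) in the Sham library, from 444 UMIs. In the library labelled TAC it was 1617 (1518 to 1721), from 993 UMIs. No other large type passed 7.74 in either library. The endocardial level was 333 times (268 to 418) that of the other large types together in the Sham library and 392 times (320 to 483) in the TAC library. These cells were 1.997% and 2.92% of all cells and held 81.3% (77.8 to 84.5) and 89.9% (87.9 to 91.6) of all Nrg1 UMIs. Where types were taken from each cell's own markers, which left 2283 and 1950 cells unnamed and 100 and 154 cells endocardial, the shares were 47.4% and 48.0%. Among the remaining types, no neighbours in the order of levels were apart by their 95% intervals.

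**Figure D1:**
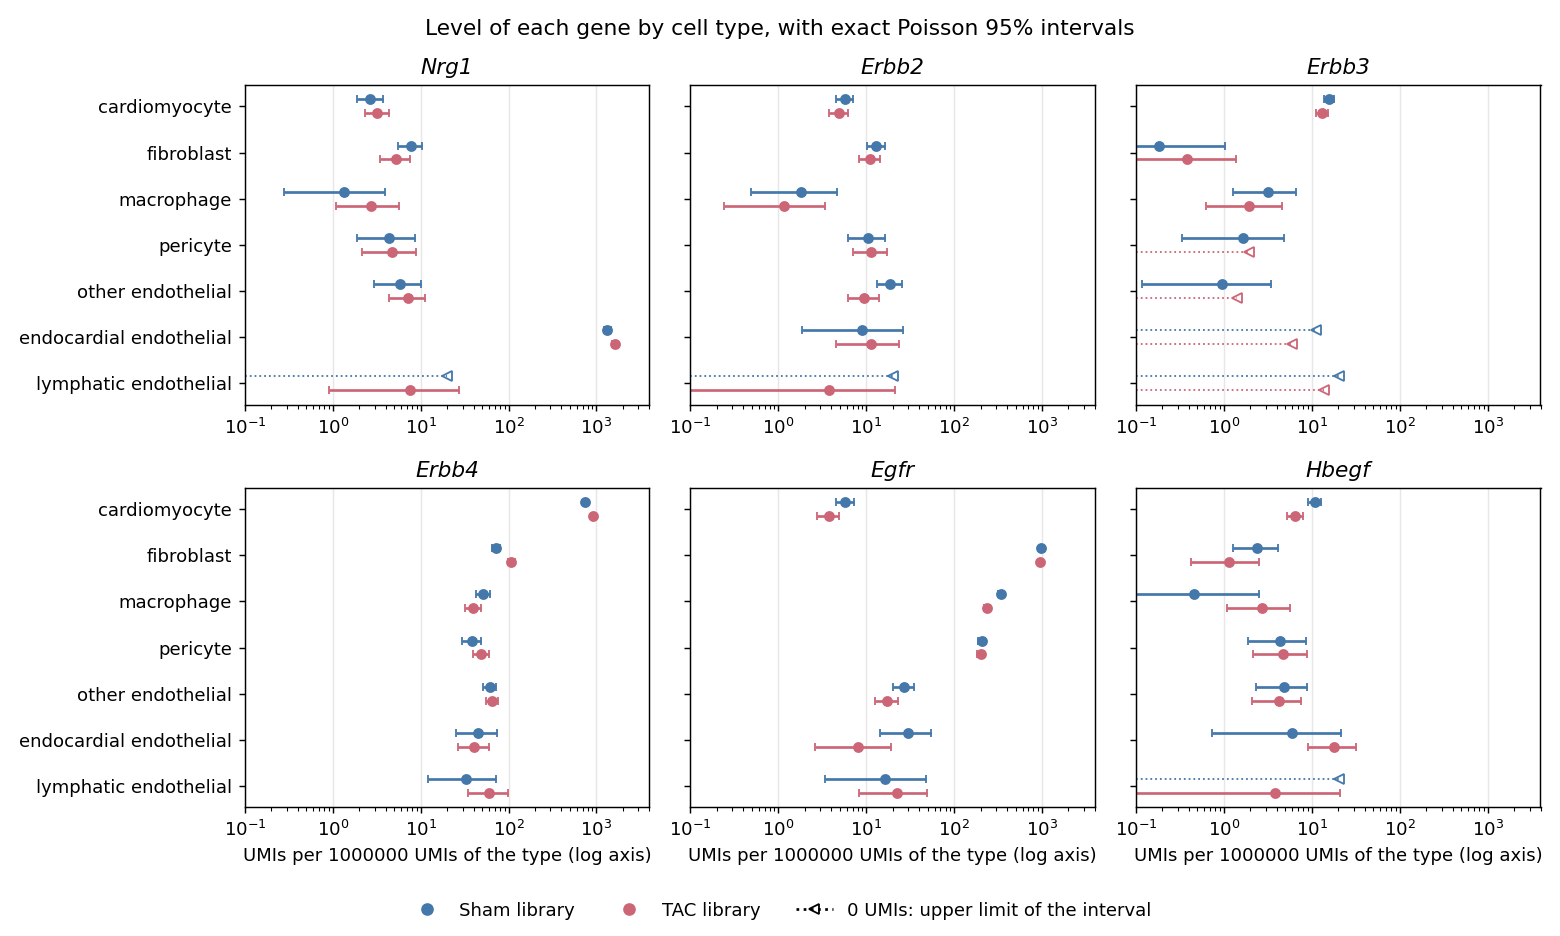
Level of each of the 6 genes in the 7 large cell types, in UMIs per 1000000 UMIs of the type on a log axis that starts at 0.1, with exact Poisson 95% intervals; blue points are the Sham and red points the TAC library, and open triangles give the upper limit where 0 UMIs were found. Nrg1 stands at 1335 and 1617 in endocardial cells and under 8 elsewhere, Erbb4 leads in cardiomyocytes and Egfr in fibroblasts.

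Within the endocardial cells Nrg1 was unevenly spread. In the Sham library 63 of 189 cells (33.3%) carried an Nrg1 UMI, up to 43 in 1 cell, and 9 cells held at least 50% of the UMIs. In the TAC library 117 of 276 cells (42.4%) carried one, up to 62 in 1 cell, and 15 cells held at least 50%. With each cell thinned to 1000 UMIs, leaving out 45 and 16 shallower cells, the shares were 29.9% (22.5 to 38.0) and 35.0% (29.2 to 41.1), and these intervals overlap. Cardiomyocytes, which served as the background for free RNA, gave thinned shares of 0.242% and 0.377%. Nrg1 was higher in endocardial cells with a UMI of Npr3, a natriuretic peptide receptor that marks endocardium: 1565 against 799 in cells without one in the Sham library, and 1930 against 620 in the TAC library. The median depth was 1694 and 1153 UMIs in these Sham cells and 2132 and 1936 in the TAC cells. In the reverse split, endocardial genes did not all follow Nrg1. Cdh11, a cadherin among the endocardial markers, was higher in cells with an Nrg1 UMI in both libraries, at 2302 and 2358 against 1500 and 1796 in cells without. Npr3 was at 2293 against 1748 in the TAC library, with intervals apart, but at 1764 (1539 to 2014) against 1664 (1493 to 1849) in the Sham library. Tmem108 was at 4315 against 3862 and at 5485 against 3953, and Smoc1 at 545 against 462 and at 712 against 460, each with intervals apart in the TAC library and overlapping in the Sham library. Vwf, which encodes von Willebrand factor, was lower in cells with Nrg1 in both libraries, at 706 (566 to 869.5) against 1058 (923 to 1207) and at 1038 (921.5 to 1164) against 1318 (1198 to 1447). Pecam1, a general endothelial gene, was at 2237 against 2328 in the Sham library and lower, at 1660 (1512 to 1818) against 2328 (2167 to 2497), in the TAC library.

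The ratio of the TAC to the Sham level in endocardial cells was 1.21 (1.08 to 1.36). Over all cells of a library the ratio was larger, 1.97 (1.77 to 2.18), from 21.1 to 41.4 per 1000000 UMIs. The endocardial share of cells differed between the libraries in the same direction, and endocardial cells of the TAC library were also deeper, at a median of 2066 UMIs per cell against 1535. The part of cell recovery in these shares was not tested. Nrg1 did not pass the 1.5-fold mark in these cells, which 9.54% of the 3722 genes compared there passed upward and 8.06% downward (17.6% in all). With finer clustering the ratio was 1.06.

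Outside the endocardium few cells carried Nrg1. Fibroblasts held 42 Sham and 27 TAC UMIs, and 1 Sham cell held 20 of the 42. Cardiomyocytes held 36 and 42 UMIs, mostly 1 per cell. Among small groups of the TAC library, 36 B cells held 4 UMIs, a level of 78.1 (21.3 to 200). The 44 venous endothelial cells also held 4, a level of 48.3 (13.2 to 124). In the Sham library 37 B cells held 0 Nrg1 UMIs, and no venous cluster was named. The gene spans chr8:31814551-32884029 on the minus strand of GRCm38 in the GENCODE M21 annotation, 1069 kb with 10.4 kb of exons. The genes whose levels followed Nrg1 most closely over 20 points (10 cell types in each of 2 libraries, sharing depth within a library) were Smoc1 (Pearson's r = 0.898), Cdh11 (0.883), Vwf (0.828), Epha7 (0.821) and Rdx (0.815), of which Smoc1 and Cdh11 are also endocardial markers used to name the cluster.

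Hbegf was sparse and lay mainly in cardiomyocytes. They held 146 of 188 Hbegf UMIs in the Sham library (77.7%) and 85 of 132 in the TAC library (64.4%). Their share of the UMIs of all genes was 52.0% and 49.2%. Their Hbegf level was 10.8 (9.16 to 12.8) in the Sham library and 6.48 (5.18 to 8.02) in the library labelled TAC, a ratio of 0.598 (0.452 to 0.786). This is past 1.5-fold downward, as were 6.77% of the 13303 genes compared in cardiomyocytes, while 12.9% were past it upward and 19.7% in either direction. All 6 members had at least 50 UMIs over both libraries in cardiomyocytes, and Egfr was the other one past the mark, at 0.645, also downward. Its cardiomyocyte level was 5.79 and 3.74, against 986 and 961 in fibroblasts, and the part of free RNA in it was not tested. Cardiomyocytes with an Hbegf UMI were 124 of 2508 and 66 of 2399, and 1 TAC cell held 8 UMIs. Among the types under 50 cells, smooth muscle had Hbegf at 33.2 (9.04 to 84.9) and 20.5 (2.48 to 74.0). These values rest on 4 UMIs in 47 Sham cells and 2 in 43 TAC cells, and their intervals overlap those of cardiomyocytes.

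Endocardial cells held 2 Hbegf UMIs in the Sham library and 11 in the TAC library, at levels of 6.01 (0.728 to 21.7) and 17.9 (8.94 to 32.0). The ratio of 2.98 had an interval from 0.650 to 27.7, so the difference was not detectable at this depth. In the TAC library this level was above that of cardiomyocytes by 2.76 times (1.33 to 5.197), whereas in the Sham library cardiomyocytes were 1.80 times (0.490 to 15.04) the endocardial level. Cardiomyocytes with a UMI of Nppa, which encodes atrial natriuretic peptide, had Hbegf at 20.7 (10.7 to 36.2) against 10.4 (8.72 to 12.3) in those without in the Sham library, from 12 and 134 UMIs. The values in the TAC library were 10.6 and 6.39, from 3 and 82 UMIs, and the intervals overlapped in both libraries.

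**Figure D2:**
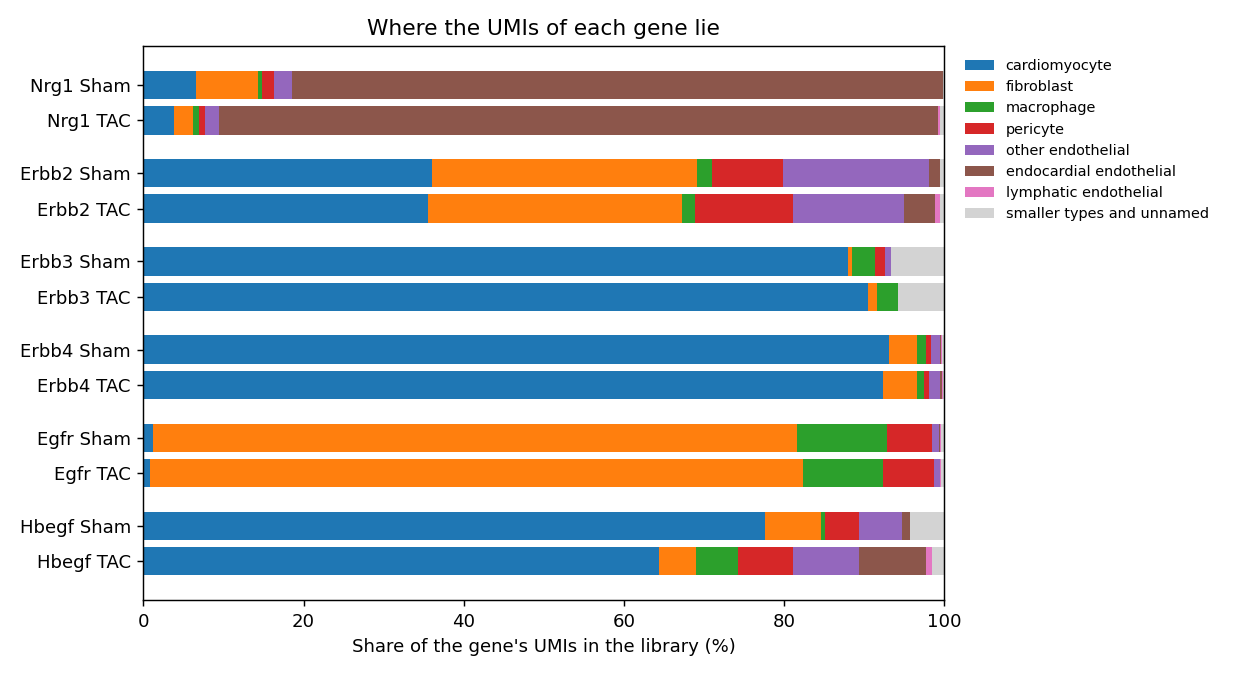
Share of each gene's UMIs, in percent of its UMIs in a library, that lies in each cell type; each bar is 1 gene in 1 library. Endocardial cells hold 81.3% and 89.9% of Nrg1, cardiomyocytes 93.1% and 92.3% of Erbb4 and fibroblasts 80.4% and 81.6% of Egfr, while Erbb2 is split over several types; with types from each cell's own markers the Nrg1 shares were 47.4% and 48.0%.

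Erbb4, the main neuregulin receptor of the adult heart muscle cell, was a cardiomyocyte gene. Its level was 749 (735 to 764) in the Sham library, from 10089 UMIs, and 914 (898 to 930) in the library labelled TAC, from 11982 UMIs. Cardiomyocytes held 93.1% and 92.3% of all Erbb4 UMIs. A UMI was found in 2050 of 2508 (81.7%) and 2114 of 2399 cardiomyocytes (88.1%), and the median cell held 2 UMIs in the Sham and 4 in the TAC library. At 1000 UMIs per cell the shares were 46.2% and 52.5%. The ratio of the libraries was 1.22 (1.19 to 1.25), with a range of 1.20 to 1.23 over 11 alternative settings.

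The clusters of cardiomyocytes also differed in Erbb4. The 3 Sham clusters stood at 668, 789 and 647, and the 2 TAC clusters at 994 and 760. The cluster at 789 in the Sham library and that at 994 in the TAC library were both the largest and deepest of their library, at a median of 5441 and 5571 UMIs per cell, and both were led by Pdzrn4. The 10 cardiomyocyte markers summed to 82513 per 1000000 UMIs in Sham and 64532 in TAC cardiomyocytes, and their part in the Erbb4 ratio was not tested. In cardiomyocytes with Nppa, Erbb4 was at 723 (655 to 795) in the Sham and 722 (627 to 828) in the TAC library, against 751 (736 to 766) and 918 (902 to 935) in those without. The intervals overlapped in the Sham library and were apart in the TAC library, where 46 cells carried Nppa.

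**Figure D3:**
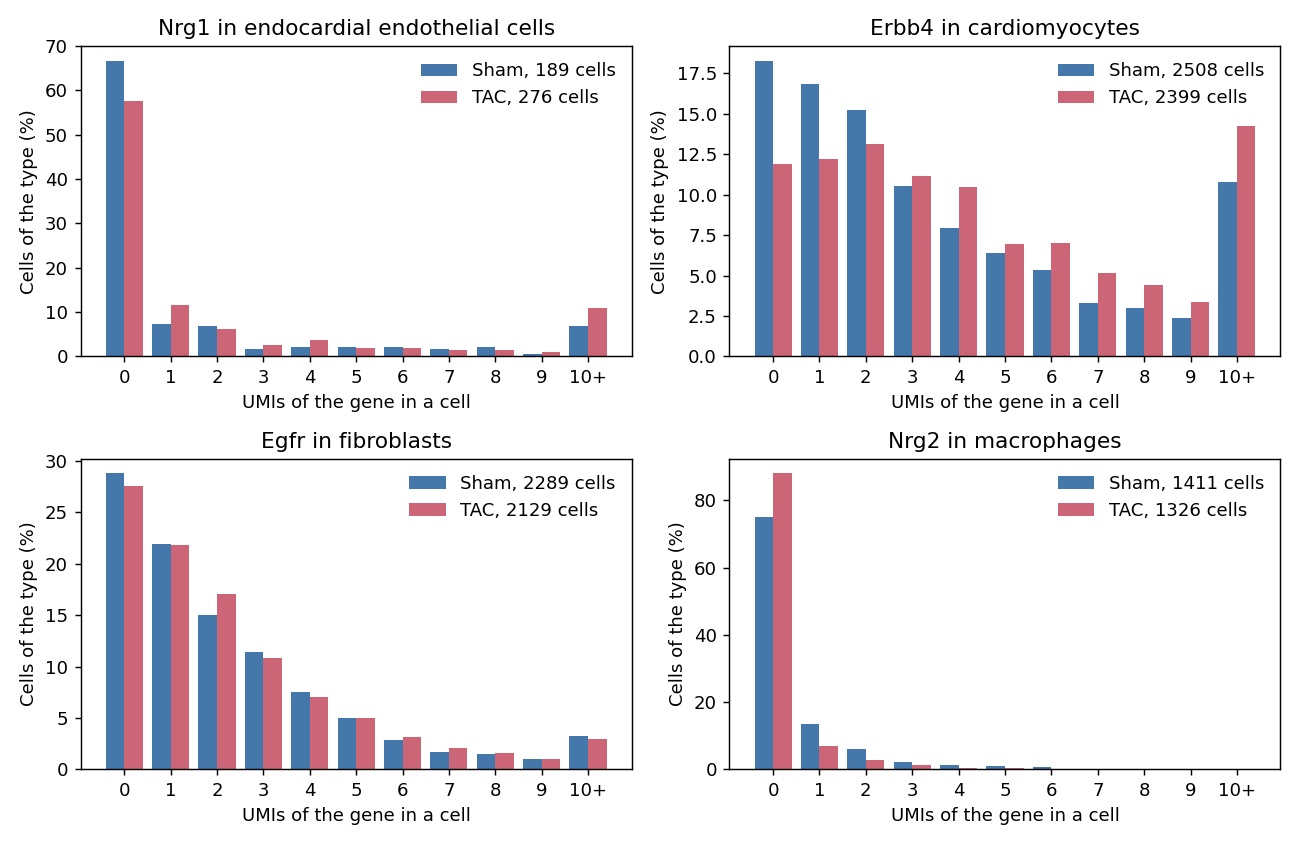
Distribution of UMIs per cell, in percent of the cells of the type, for Nrg1 in endocardial cells, Erbb4 in cardiomyocytes, Egfr in fibroblasts and Nrg2 in macrophages; the last bin holds cells with 10 or more UMIs, blue bars are the Sham and red bars the TAC library. Most endocardial cells carry no Nrg1 UMI while 13 of 189 and 30 of 276 carry 10 or more, and the Erbb4 distribution of the TAC library lies to the right of the Sham one.

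Other large types had Erbb4 levels from 32.8 to 71.5 in the Sham library and from 39.7 to 108 in the TAC library. These UMIs were set against those of cardiomyocyte markers found in the same cells. Per 1000 UMIs of the 10 cardiomyocyte markers, cardiomyocytes themselves had 9.08 (8.91 to 9.26) Erbb4 UMIs in the Sham and 14.2 (13.9 to 14.4) in the TAC library. Macrophages, pericytes and the 3 endothelial types had 10.1 to 13.2 in the Sham library and 16.7 to 19.4 in the TAC library, except for TAC lymphatic cells at 32.1 (18.3 to 52.1) from 16 UMIs. All were above the cardiomyocyte ratio of their library and, apart from TAC lymphatic cells, within 1.5 times of it. The intervals were apart from that of cardiomyocytes in Sham macrophages, 13.2 (10.9 to 15.9), in other endothelial cells of both libraries, 11.8 (9.81 to 14.0) and 17.3 (14.8 to 20.1), and in TAC pericytes, 19.4 (15.7 to 23.8), and also in TAC lymphatic cells. How much of this Erbb4 was made in these cells was not tested.

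Fibroblasts stood apart, with 26.9 (24.3 to 29.7) and 55.0 (50.5 to 59.7) Erbb4 UMIs per 1000 marker UMIs. Their Erbb4 level was 71.5 and 108, a ratio of 1.51 (1.32 to 1.72). This is past 1.5-fold upward, as were 10.6% of the 12299 genes compared in fibroblasts, with 4.34% downward and 14.9% in either direction. The ratio lies at the mark and fell short of it in 5 of 12 alternatives, among them median-ratio scaling (1.48) and thinned cells (1.43). Most of these UMIs lay in few cells: 13 Sham fibroblasts with 3 or more Erbb4 UMIs held 226 of 388 UMIs, and 22 such TAC fibroblasts held 365 of 559, up to 53 and 84 in 1 cell. Without them, 11.7 (10.0 to 13.7) and 19.3 (16.7 to 22.2) UMIs per 1000 marker UMIs were left, and the ratio of levels was 1.26. Since these cells were picked by Erbb4 itself, their removal lowers the values per marker UMI by construction. This cell set was chosen after the values were seen. Its fibroblast markers summed to 3557 and 4078 per 1000000 UMIs, against 4750 and 6453 in the remaining fibroblasts, and its Egfr level was 281 and 191 against 992 and 969. Cardiomyocyte markers were at 14110 against 2564 in the Sham library, and at 1978 (1632 to 2376) against 1958 (1920 to 1997) in the TAC library. Pdzrn4, Cadm1, Kcnma1 and Plcb1 were among the 6 genes with the largest log2 difference from the remaining fibroblasts in both libraries.

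**Figure D4:**
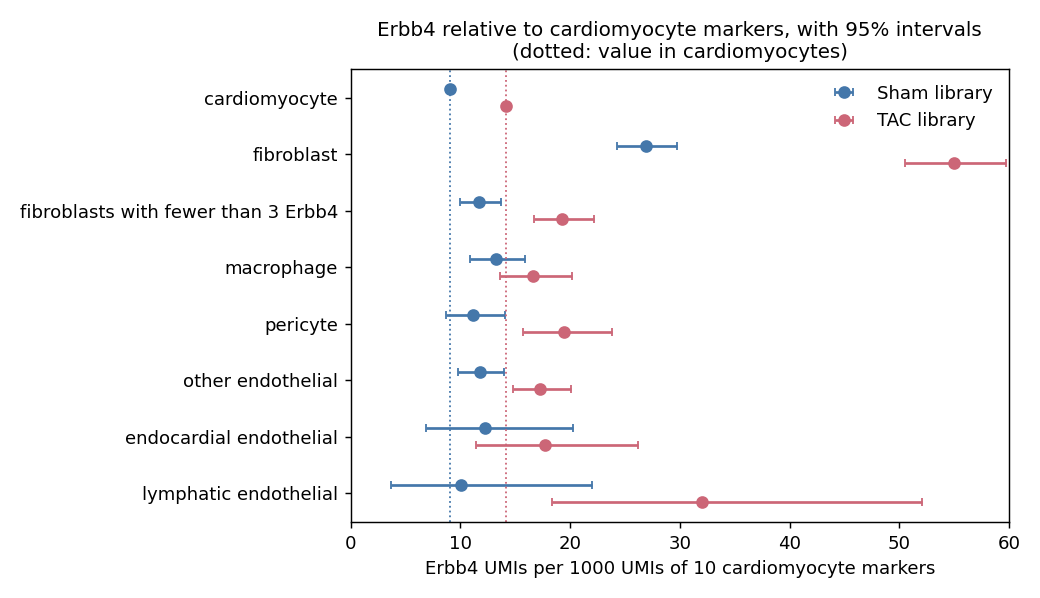
Erbb4 UMIs per 1000 UMIs of 10 cardiomyocyte markers in each large cell type, with 95% intervals, in the Sham (blue) and TAC (red) library; dotted lines give the values in cardiomyocytes, 9.08 and 14.2. Fibroblasts lie at 26.9 and 55.0, and fibroblasts with fewer than 3 Erbb4 UMIs at 11.7 and 19.3, after a cut on Erbb4 itself that was not made in the other types.

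Erbb4 spans chr1:68032186-69108059 on the minus strand, 1076 kb with 12.4 kb of exons. Mast2, a kinase (r = 0.938), Tnni3k, a cardiac troponin I-interacting kinase (0.933), and Kcnj3, an inward rectifier potassium channel (0.912), had the closest level patterns over the same 20 points, followed by D830024N08Rik (0.904) and Gm43361 (0.903).

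Erbb3, which pairs with ErbB2, was low in cardiomyocytes and was high in Schwann cells, the glia of nerves. Cardiomyocytes held 213 of 242 UMIs in the Sham and 172 of 190 in the TAC library, 88.0% and 90.5%. Their level was 15.8 (13.8 to 18.1) and 13.1 (11.2 to 15.2), a ratio of 0.829 (0.674 to 1.02), and no difference was detectable at this depth. The 17 Sham and 15 TAC Schwann cells had 12 and 10 UMIs, a level of 391 (202 to 684) and 366 (176 to 673). Every other large type was at 3.17 or lower, and endocardial and lymphatic endothelial cells had 0 UMIs, which allows up to 9.02 and 16.4 in the Sham library by the limit of 3 counts.

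Erbb2, the shared partner receptor, was low in every large type and led in none by a clear margin. Sham levels were 18.7 (13.3 to 25.6) in other endothelial cells, 13.1 in fibroblasts, 10.3 in pericytes, 9.02 in endocardial cells, 5.72 in cardiomyocytes and 1.81 in macrophages. In this order the first 5 types were not apart from their neighbours, while cardiomyocytes were above macrophages by 3.16 times (1.18 to 11.9). In the TAC library pericytes (11.4), endocardial cells (11.4), fibroblasts (10.98) and other endothelial cells (9.54) were not apart from their neighbours, and other endothelial cells were above cardiomyocytes (4.88) by 1.95 times (1.18 to 3.15). In other endothelial cells Erbb2 had 39 Sham and 25 TAC UMIs, a ratio of 0.510 (0.296 to 0.864), and of 0.320 with cells thinned to 1000 UMIs. This is past 1.5-fold downward, as were 6.36% of the 9336 genes compared there, with 8.69% upward and 15.05% in either direction. The ratios in cardiomyocytes, 0.853 (0.603 to 1.20), and in fibroblasts, 0.839 (0.581 to 1.21), had intervals that include 1, and that in cardiomyocytes was 0.642 with thinned cells.

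Since long genes can yield more UMIs where reads from introns are counted, levels of different receptors were compared per kb of gene span. In Sham cardiomyocytes Erbb3 was at 0.715, Erbb4 at 0.697 and Erbb2 at 0.227 UMIs per 1000000 UMIs and kb of span. The first 2 differ by less than the counting interval of Erbb3. In TAC cardiomyocytes Erbb4 was at 0.849, Erbb3 at 0.593 and Erbb2 at 0.193 on this scale. Per kb of exon, Sham cardiomyocytes had 60.7 for Erbb4, 2.63 for Erbb3 and 1.10 for Erbb2, and TAC cardiomyocytes 74.0, 2.18 and 0.937. Erbb2 was lowest by either length in both libraries, while the distance of Erbb4 from the others depends on the length used. Whether intron reads were counted is not given in the sources used here. Erbb2 spans chr11:98412470-98437716 on the plus strand and Erbb3 chr10:128567523-128589652 on the minus strand, 25.2 and 22.1 kb.

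Erbb2 was sought in the same cardiomyocytes as Erbb4. At 1000 UMIs per cell, Erbb2 was found in 0.787% (0.361 to 1.49) of Sham cardiomyocytes with Erbb4 and in 0.676% (0.309 to 1.28) of those without. In the TAC library the shares were 0.559% and 0.530%. Erbb3 was found in 1.66% and 1.65% of these cells in the Sham and in 1.20% and 2.12% in the TAC library. All 4 pairs of intervals overlapped, so a difference in detection between cells with and without Erbb4 was not detectable at this depth. Without thinning, the Erbb2 shares with and without Erbb4 were 3.07% and 2.18% in the Sham library, and 2.89% (2.21 to 3.69) and 0.351% (0.00888 to 1.94) in the TAC library, where the intervals were apart. The unthinned Erbb3 shares were 8.10% (6.95 to 9.36) and 5.02% (3.21 to 7.44) in the Sham library and 7.05% (5.99 to 8.22) and 3.51% (1.70 to 6.36) in the TAC library, with overlapping intervals. In these unthinned sets the cells with Erbb4 were deeper, at a median of 5014 UMIs against 2883 in the Sham library and 5187 against 3102 in the TAC library.

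Egfr, the receptor of EGF and HB-EGF, lay mainly in fibroblasts. Its level was 986 (960 to 1013) in Sham and 961 (934 to 988) in TAC fibroblasts, from 5353 and 4989 UMIs, and 1630 of 2289 and 1543 of 2129 cells carried a UMI. The ratio of 0.974 (0.937 to 1.012) shows no difference beyond counting error, and with cells thinned to 1000 UMIs it was 1.02. Fibroblasts held 80.4% and 81.6% of all Egfr UMIs. Among the Sham fibroblast clusters, the one led by Cilp, Nox4 and Postn, genes of matrix-producing fibroblasts, had the lowest Egfr level, 727 (672 to 786), and the other 3 had 989 to 1179. No such cluster was separated in the TAC library, where 3 clusters had 926 to 1007.

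Among the large types, macrophages had the next highest Egfr level, 338 (314 to 363) in the Sham and 238 (219 to 257) in the TAC library. The ratio was 0.702 (0.630 to 0.783), short of the 1.5-fold mark, which 8.995% of the 9483 genes compared in macrophages passed downward and 9.02% upward (18.01% in all). With cells thinned to 1000 UMIs it was 0.621, and with no doublets removed 0.654, both past the mark. The share of macrophages with a UMI was 23.6% in the Sham and 19.2% in the TAC library, and at 1000 UMIs per cell 20.7% and 13.1%, against 0.970% and 0.503% in cardiomyocytes. Fibroblast markers were at 180 in Egfr-carrying against 271 in the remaining Sham macrophages, and at 239 against 305 in the TAC library. The part of fibroblast RNA in the macrophage level of Egfr was not tested.

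Egfr-carrying macrophages differed from the rest in several macrophage genes. Lyve1, a hyaluronan receptor, was at 227 (194 to 265) against 102 (86.0 to 119) in the Sham library and at 428 (380 to 480) against 193 (173 to 213) in the TAC library. Timd4, a phosphatidylserine receptor, was at 95.6 against 44.4 and at 236 against 115. H2-Ab1, an MHC class II chain, was lower in them, at 40.2 (26.9 to 57.7) against 164 (144 to 186) and at 42.2 (28.3 to 60.6) against 140 (123 to 157). Ccr2, a chemokine receptor of monocyte-derived cells, was at 15.2 against 88.8 and at 13.1 against 88.1. These 4 genes had the same direction in both libraries with intervals apart. Adgre1, the F4/80 gene of macrophages at large, was lower in Egfr-carrying cells of the TAC library, at 892 (823 to 966) against 1084 (1038 to 1132), and was at 1164 against 1222 in the Sham library, where the intervals overlapped. Taken the other way, Egfr was at 559 and 355 in macrophages with Lyve1, and at 278 and 173 in those without. Egfr-carrying cells were deeper, at a median of 1916 against 1196 and 2344 against 1530 UMIs, and levels per UMI were used for this reason.

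Pericytes had Egfr at 205 (185 to 227) and 201 (181 to 222), a ratio of 0.977 (0.846 to 1.13). Other endothelial cells were at 26.8 and 17.2, a ratio of 0.640 (0.422 to 0.964), which is past 1.5-fold downward from 56 and 45 UMIs. Of the 9336 genes compared there, 6.36% were past it downward, 8.69% upward and 15.05% in either direction. Cardiomyocytes were at 5.79 and 3.74. Sham Schwann cells were at 359 (179 to 642), with 11 UMIs in 3 of 17 cells, 9 of them in 1 cell, and the 15 TAC cells had 0.

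Egfr spans chr11:16752203-16918158 on the plus strand, and the antisense gene Egfros overlaps it by 15272 bases on the other strand. Egfros had 350 UMIs in Sham and 810 in TAC fibroblasts, levels of 64.5 and 156 with a ratio of 2.42 (2.13 to 2.75). Whether strand was used in counting is not given in the sources used here, so the reads of the pair may not be fully separated. The closest level patterns to Egfr were those of Abca9, a lipid transporter (r = 0.923), and Col27a1, a fibrillar collagen (0.906), followed by Slc8b1 (0.846), Ssh2 (0.806) and Adam9 (0.791). Erbb2, Erbb3 and Hbegf had fewer than 200 UMIs in the TAC library, the minimum set for this measure, and no such genes are given for them.

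The other 9 ligands of the family were read in the same way. Nrg2, a neuregulin that binds ErbB3 and ErbB4, lay mainly in macrophages, with 688 of 938 UMIs in the Sham and 289 of 522 in the TAC library. Its macrophage level was 312 (289 to 336) in the Sham and 112 (99.8 to 126) in the library labelled TAC. The ratio of 0.361 (0.313 to 0.414) was the lowest of any member or other ligand compared in a large type. Taken as Sham to TAC it was 2.77. Over 11 alternatives added after the data were seen, the ratio of TAC to Sham ranged from 0.344 to 0.374. Macrophages with an Nrg2 UMI were 352 of 1411 (24.9%) and 159 of 1326 (11.99%), and at 1000 UMIs per cell 21.1% and 8.14%, against 0.727% and 0.964% in cardiomyocytes.

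The level of Nrg2 was also read by macrophage genes. It was at 239 (197 to 287) in Sham macrophages with Lyve1 and 332 (305 to 360) in those without, and at 103 and 118 in the TAC library, where the intervals overlapped. In macrophages with H2-Ab1 it was at 371 (306 to 445) and 163 (125 to 209), and in those without at 302 (278 to 328) and 104 (90.5 to 118), with intervals apart in the TAC library and overlapping in the Sham library. Macrophages with an Nrg2 UMI had more Egfr than those without, 418 (370 to 471) against 306 (279 to 334) in the Sham library, and 302 (247 to 365) against 227 (208 to 248) in the TAC library, where the intervals overlapped slightly. In the reverse split, Nrg2 was at 309 (270 to 352) in Sham macrophages with Egfr and 313 (285 to 343) in those without. The TAC values were 116 (92.3 to 145) and 111 (96.4 to 127), and the intervals overlapped in both libraries. Cd163, a scavenger receptor, was higher in macrophages with Nrg2 in both libraries, at 1594 against 1272 and at 1140 against 920. Ccr2 was lower in them in the Sham library, at 25.1 (14.3 to 40.7) against 80.9 (67.5 to 96.3), and was at 54.2 (32.6 to 84.6) against 70.2 (59.7 to 82.2) in the TAC library. In each of the 4 sets with or without Lyve1 or H2-Ab1, Nrg2 was lower in the library labelled TAC. The same library had more Lyve1 in macrophages, 255 against 143 in the Sham library, and 341 against 206 cells with Lyve1. Timd4 was also higher in its macrophages, at 147 against 61.1, Cd163 was lower, at 950.4 (913 to 989) against 1365 (1317 to 1415), as was Adgre1, at 1033 (994 to 1073) against 1203 (1158 to 1250), while H2-Ab1 was at 114 against 124 and Ccr2 was at 68.1 against 64.8. The part of these shifts in the Nrg2 ratio was not tested. Epicardial or mesothelial cells, of which there were 20 and 25, had Nrg2 at 428 (249 to 685) and 539 (371 to 757), a ratio of 1.26 (0.682 to 2.41). The 49 and 21 cells in unnamed clusters, nearest to dendritic cells by their markers, held 36 and 8 Nrg2 UMIs. Their level was 393 (275 to 544) and 184 (79.2 to 362), with intervals that overlap those of macrophages in both libraries.

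Cardiomyocytes held most UMIs of 3 further ligands. Nrg4, an ErbB4 ligand, was at 25.03 (22.4 to 27.9) and 34.2 (31.1 to 37.5), a ratio of 1.36 (1.18 to 1.58), and of 1.78 with cells thinned to 1000 UMIs. Egf was at 39.6 and 44.2, a ratio of 1.12 (0.990 to 1.26). Btc, which encodes betacellulin, was at 4.90 and 5.03, a ratio of 1.03 (0.719 to 1.47), which became 0.432 with cells thinned to 1000 UMIs. Tgfa was at 45.1 (25.2 to 74.4) and 55.4 (38.3 to 77.4) in endocardial cells, from 15 and 34 UMIs, with no difference detectable at this depth. The 20 and 25 epicardial or mesothelial cells had Tgfa at 176 (70.9 to 363) and 163 (78.4 to 301), from 7 and 10 UMIs. These intervals were apart from the endocardial ones in the TAC library and overlapped them in the Sham library. Nrg3 had 30 and 45 UMIs in whole libraries, Epgn 6 in each and Ereg 4 in each. Areg had 0 Sham UMIs, which allows up to 0.116 per 1000000, and 10 TAC UMIs, all in 5 macrophages.

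**Figure D5:**
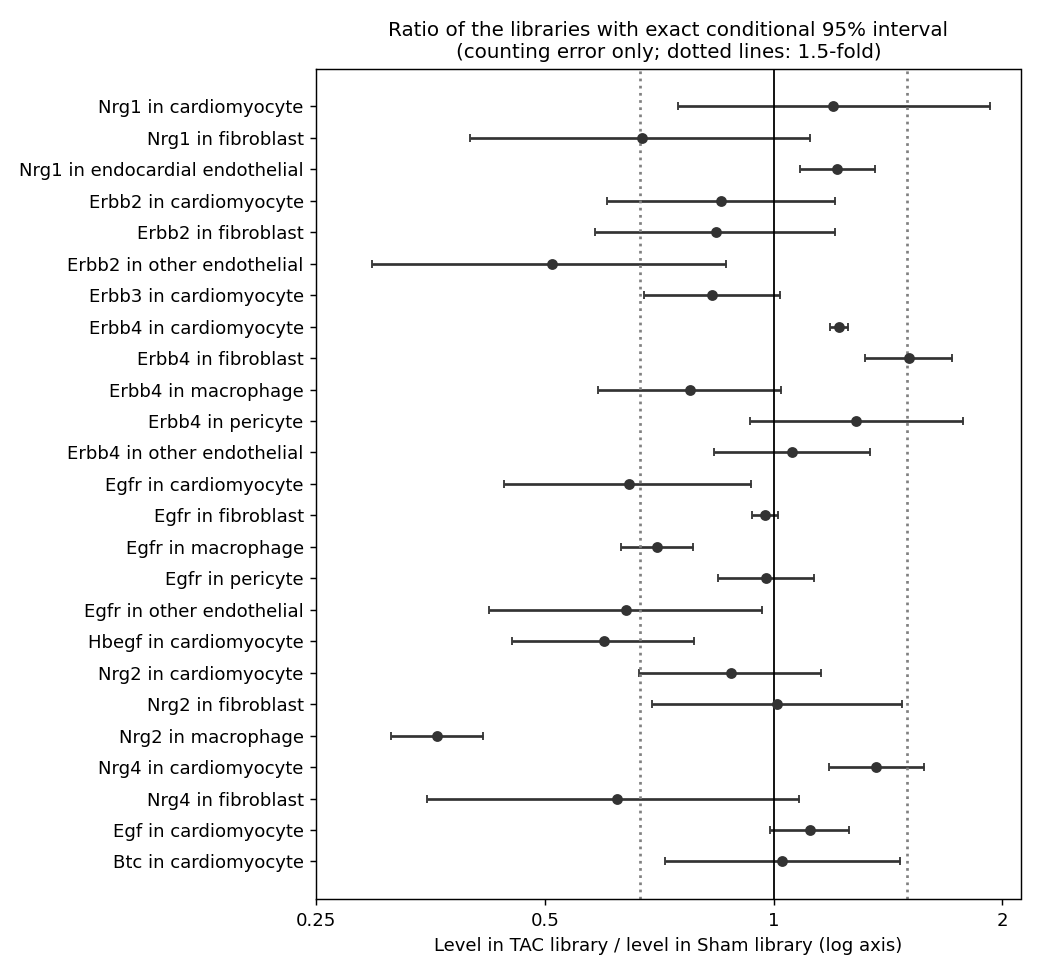
Ratio of the level in the TAC library to that in the Sham library for each member, and for 4 other ligands, in each large cell type with at least 50 UMIs over both libraries, on a log axis with exact conditional 95% intervals for counting error; dotted lines mark 1.5-fold. Nrg2 in macrophages lies lowest at 0.361 (2.77 taken as Sham to TAC), and Erbb4 in cardiomyocytes at 1.22 has the narrowest interval.

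The rest of the pathway was counted from 58 genes: the 9 other ligands, sheddases, inhibitors, adaptors and kinases, transcription targets and heparan sulphate partners. In cardiomyocytes 41 had at least 50 UMIs, of which 1 was past 1.5-fold upward and 4 downward (2.44% and 9.76%), against 12.9% and 6.77% of all genes, with a median ratio of 0.992 against 1.02 over all genes. The 4 lower genes were Cd44, a hyaluronan receptor, at 49.0 and 24.7 (ratio 0.505), Rhbdf1, which helps ADAM17 mature, at 17.5 and 9.46 (0.542), Ptpn11, the SHP2 phosphatase, at 262 and 148 (0.564), and Pik3r1, the regulatory subunit of PI3 kinase, at 1076 and 632 (0.588). Etv1, an ETS factor, was at 10.4 and 17.2 (1.65). None of the 12 inhibitor genes compared passed the mark in cardiomyocytes. Among the sheddases that cut ErbB ligands, Adam17 had a ratio of 1.17 (1.04 to 1.32), Adam10 of 1.28 (1.17 to 1.42) and Adam19 of 1.45 (1.34 to 1.56) in these cells, while Adam9, at 0.934 (0.799 to 1.09), and Adam15, at 0.957 (0.610 to 1.498), had intervals that include 1. Of the other genes in that group, Bace1 had a ratio of 1.32 (1.15 to 1.503) and Rhbdf2 of 0.892 (0.713 to 1.11).

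In fibroblasts 48 pathway genes were compared, with 1 past 1.5-fold upward and 3 downward, against 10.6% and 4.34% of all genes. Fos was at 4.61 and 11.6 (ratio 2.51), and Pik3r1 was lower as in cardiomyocytes, at 346 and 209.5 (0.605). The other 2 lower genes had few UMIs and intervals that include 1, Nrg4 at 0.621 (0.349 to 1.08, and 0.697 with types from own markers) and the glypican gene Gpc1 at 0.602 (0.323 to 1.09). Errfi1, a feedback inhibitor of EGFR, was at 201 and 248, a ratio of 1.23 (1.14 to 1.34), while Egfr had 0.974 in the same cells.

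Of 37 pathway genes compared in macrophages, 6 were past the mark upward (16.2%), against 9.02% of all genes. Another 4 were past it downward (10.8%), against 8.995%. Of the 11 inhibitor and turnover genes compared, 3 were past the mark upward and 2 downward. The 3 were Errfi1 at 18.6 and 42.4 (ratio 2.28), and the Ras pathway inhibitors Spred2 at 110 and 205 (1.87) and Spred1 at 258 and 396 (1.54). The 2 were Lrig3 (0.316) and the ubiquitin ligase gene Cblb (0.661). The other 3 genes past the mark upward were Cd44 (1.91), Rhbdf2 (1.61) and Etv5 (1.53). The other 2 downward were Nrg2 and Shc1 (0.629). These macrophage genes were named after their values were seen.

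In other endothelial cells 5 of 40 pathway genes were past the mark downward, against 6.36% of all genes, and 1, Lrig1 (1.84), upward, against 8.69%. The 5 were the immediate early genes Egr1, at 47.9 and 24.8 (0.517), and Fos (0.432), the feedback inhibitors Spry1 (0.518) and Dusp6 (0.516), and the kinase Akt1 (0.565). In endocardial cells 4 of 23 were past it downward (17.4%) and 1 upward, against 8.06% and 9.54% of all genes. These were the sheddase Adam15, at 225 and 129 (0.571), Etv1 (0.502), the deubiquitinase gene Usp8 (0.586) and the inhibitor Lrig2, at 0.607 (0.341 to 1.08), and the gene past it upward was the ubiquitin ligase Cbl (1.57). By contrast, Adam10 was at 198 and 217 and Adam17 at 72.1 and 65.1. Pericytes had 1 gene of 39 past the mark in each direction, Rnf41 (1.57) and Spry1 (0.618), where 7.33% of all genes were past it upward, 6.46% downward and 13.8% in either direction. Lymphatic cells had 2 genes of 14 past it upward, Gab1 at 1.63 (1.09 to 2.47) and Grb2 at 1.55 (0.838 to 2.99), and 1 downward, Pik3r1 at 0.649 (0.391 to 1.08), the last 2 with intervals that include 1, where the shares over all genes were 9.66%, 7.77% and 17.4%.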

How the data were processed

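The deposited files hold raw UMI counts per gene and barcode that the authors made with Cell Ranger 7.1.0 per the submitters' processing notes, from a 10x 3′ kit labelled version 3. The paper's methods name other versions of both. Genome build, annotation, intron counting and strand setting are not given in the sources used here. Of 55357 gene IDs, 52081 (94.1%) were in GENCODE M21 (GRCm38), from which coordinates and lengths were taken. Sequences were not used.

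Barcodes with fewer than 200 genes (1 per library) and predicted doublets (469 and 472 barcodes, 4.72% and 4.75%) were removed. Mitochondrial genes made up 0.591% and 0.509% of UMIs. Each library was clustered with scanpy 1.11.5 (2000 variable genes, 30 components, 15 neighbours, Leiden resolution 1), and endothelial clusters were clustered again. A cluster was named only with at least 3 markers. The 49 and 21 cells in unnamed clusters stayed in library totals.

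Counts were summed per library and type. Intervals are exact 95% Poisson, conditional binomial or Clopper-Pearson (scipy 1.17.1) and cover counting error only. For 0 UMIs the upper limit shown is that of 3. Genes with at least 50 UMIs over both libraries were compared at 1.5-fold. Likeness was Pearson's r over log2 levels with a pseudocount of 1 in 10 types with at least 30 cells in each library. The steps were tested on simulated counts. Named genes were the 6 members, the other ligands, the pathway genes past 1.5-fold in a member's leading type (those of other types were named after their values were seen) and the 5 closest genes to each member. Likeness was computed for members with at least 200 UMIs in each library. The members and all lists were chosen with earlier results of these data known. Alternatives changed the cell filters (500 genes, 25% mitochondrial UMIs), shared barcodes, doublet removal, clustering (resolution 0.5 and 2, or both libraries together), naming by each cell's own markers, scaling, denominator, depth (1000 UMIs per cell) and the minimum of UMIs (100). Others were added after the data were seen.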

Additional observations from a re-analysis of the deposited data

Results flagged for a closer look

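Cd44, Etv1 and Fos, genes of the pathway list, differed between the libraries in opposite directions in 2 cell types, with both intervals apart from 1. The difference between the types was not tested, since each condition has 1 library. Cd44 was higher in macrophages of the library labelled TAC, at a ratio of 1.91 (1.68 to 2.18), and lower in its cardiomyocytes, at 0.505 (0.441 to 0.577). Etv1 was higher in cardiomyocytes, at 1.65 (1.33 to 2.05), and lower in endocardial cells, at 0.502 (0.279 to 0.898), there from 27 and 25 UMIs. Fos was higher in fibroblasts, at 2.51 (1.55 to 4.17), and lower in other endothelial cells, at 0.432 (0.233 to 0.776), from 25 and 60 and from 35 and 19 UMIs.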

How the results depend on the processing

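No paired analysis was possible because Sham and TAC have a single library apiece, without replicate numbers. Of the ratios past 1.5-fold, those of Hbegf in cardiomyocytes, Erbb2 in other endothelial cells, Erbb4 and Nrg4 in fibroblasts and Nrg2 in macrophages were run under the alternatives for cells, types, depth and scaling, and none changed direction. The remaining ratios past 1.5-fold were recomputed with median-ratio scaling only. Of 67 values for the ratios in the leading types, 65 moved by less than the counting interval. The exceptions were Nrg1 in endocardial cells at resolution 2 (1.06) and Egfr in fibroblasts thinned to 1000 UMIs (1.02). Of 98 shares of UMIs, 81 stayed within their interval. With no doublets removed, the Sham and TAC shares were 77.5% and 86.3% for Nrg1, 88.1% and 85.2% for Erbb4, and 73.5% and 74.8% for Egfr, and the TAC share of Erbb3 was 84.3%. With types taken from each cell's own markers, they were 47.4% and 48.0% for Nrg1, 81.0% and 82.6% for Erbb3, 84.6% and 84.4% for Erbb4, 55.2% and 59.5% for Egfr, and 68.1% and 52.3% for Hbegf. The cause was not tested.

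Asking for 100 in place of 50 UMIs compared fewer genes, and those past 1.5-fold were 1144 in place of 1836 in fibroblasts, 958 of 1708 in macrophages, 486 of 1155 in pericytes, 704 of 1405 in other endothelial, 208 of 655 in endocardial and 97 of 341 in lymphatic cells. Among ratios added after the data were seen, 95 of 100 values stayed within their interval. The others were Erbb4 in fibroblasts by own markers (2.01) and without cells of 3 or more UMIs (1.26), and, in thinned cells, Egfr in macrophages (0.621) and Nrg4 (1.78) and Btc (0.432) in cardiomyocytes. Depth limits Erbb2, Erbb3 and Hbegf most, with 132 to 242 UMIs in a library, and all types under 50 cells.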
